A study of Mus musculus with 10 samples.

Results

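The regions described here lay on mouse chromosome 15, with midpoints from 70 to 90 Mb in the mm10 assembly, apart from those in the 1 Mb centred on 75 Mb, a window that includes the Ly6 gene cluster. The segment was selected on its measured change in accessibility between SKG and BALB/c mice in both subsets of cells studied, so all its genotype changes are given as a description, without tests. It held 1280 of the 94823 regions in the deposited table, and a further 74 regions fell in the window left out. The assay was ATAC-seq, which counts where a transposase has cut into accessible DNA, and the cells were invariant natural killer T (iNKT) cells sorted from the thymus. The 10 libraries formed 4 groups by strain and subset, with n = 2 for iNKT1 cells of each strain and n = 3 for iNKT2 cells of each strain. Per the study's methods, SKG mice carry a hypomorphic Zap70 mutation on the BALB/c background, and BALB/c mice were the controls with unmutated Zap70. No treatment was named for either strain. The mutation is present in all cells of the animal, and both subsets were sorted as CD27+ cells, iNKT1 as CD122+ and iNKT2 as CD122-. All mice of the study were aged 8 to 10 weeks. Whether cells of several mice were pooled in a library, and whether replicates came from separate mice, is not given in the sources used here, so the p-values below measure only the spread between these libraries.

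Zap70 is the kinase that relays signals from the T cell receptor, and iNKT cells depend on these signals as they mature in the thymus. iNKT1 cells produce interferon gamma under the transcription factor T-bet, while iNKT2 cells produce interleukin 4 and hold much of the factor PLZF. Promoters of broadly used genes tend to be open in most cell types, whereas distal elements, in introns and between genes, differ more from one cell type to another. The segment carries both kinds, and also Il2rb, the gene for CD122, the receptor chain shared by interleukins 2 and 15, by which the subsets were sorted.

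Insertions inside the listed regions totalled 14988590 to 36342635 per library, and these totals are not the full depth of the libraries. Levels are given in CPM, in which the insertions of each library are scaled to a common total with factors computed over all regions (TMM). The regions at the starts of the T cell genes Cd3e, Cd3d and Lck and of the iNKT gene Zbtb16 ranked at percentiles 89.8 to 97.8 of all regions by mean level. The start of Tbx21, the gene for T-bet, averaged 8.85 CPM in BALB/c iNKT1 and 2.81 CPM in BALB/c iNKT2. The Zap70 start, which cannot show a change of the protein, averaged 46.3 CPM in BALB/c and 46.0 CPM in SKG iNKT1, and 25 and 30.8 CPM in iNKT2. Among markers of other cell types, start regions ranged over group means from 0.0297 to 2.21 CPM for Ncr1 (NK cells), 0.637 to 2.06 CPM for Gata1 (erythroid), 3.95 to 17.3 CPM for Pax5 (B cells) and 4.45 to 8.84 CPM for Epcam (epithelium). By mean level they ranked at percentiles 3.56, 28.6, 78.5 and 68.2 in this order, and the Tbx21 start at 67.2, below Pax5 and Epcam. No start region was listed for Trac, Cd79a, Lyz2, Csf1r, Spi1 or Krt5. The part of other cell types in the results below was not tested. At the segment's regions with a genotype change in both subsets, SKG iNKT2 replicate 1 often lay farther from BALB/c than the other SKG iNKT2 libraries. This did not hold at such regions outside the segment. Counts without this library are given below. In bulk samples, fewer cells with an open region and less opening per cell cannot be told apart.

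The 8 sequences below are shown because their regions carry the largest fitted genotype changes of the segment by the rule for named regions: all 3 all-or-none regions and the 5 graded regions whose smaller change of the 2 subsets was largest, as defined in the paragraphs that follow. In 2 of them, in Tbc1d22a and at 87.96 Mb, the change in 1 subset rested on a single library. Each is the central 300 bases of the region, read 5′ to 3′ on the plus strand of GRCm38 (mm10) as given by RefSeq. That reference is the genome of the C57BL/6J strain, so the letters are those of the reference and not those of BALB/c or SKG mice. Capitals mark exact matches, on either strand, to short strings for factor families active in T cells: TGGAAA (NFAT), GTGGGCG (Egr), GGTGTGA (T-box), TGTGGTT (Runx), CGGAAGT (ETS), CTTTGAT (TCF/LEF), TGACTCA (AP-1), GGGACTT (NF-kB) and AGGGGGC (CTCF core). No 2 of the 9 strings are the same on either strand, and matches of different strings may overlap.
chr15:82363875-82364174, 9702 bp upstream of Ndufa6, all-or-none, higher in SKG: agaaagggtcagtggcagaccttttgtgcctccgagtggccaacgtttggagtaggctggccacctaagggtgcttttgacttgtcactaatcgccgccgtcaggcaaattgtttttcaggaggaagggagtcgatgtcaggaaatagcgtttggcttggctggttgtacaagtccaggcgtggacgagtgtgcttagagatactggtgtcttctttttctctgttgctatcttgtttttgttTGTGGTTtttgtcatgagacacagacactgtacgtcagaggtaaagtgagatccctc
chr15:87088724-87089023, intergenic, 455426 bp upstream of Fam19a5, all-or-none, lower in SKG: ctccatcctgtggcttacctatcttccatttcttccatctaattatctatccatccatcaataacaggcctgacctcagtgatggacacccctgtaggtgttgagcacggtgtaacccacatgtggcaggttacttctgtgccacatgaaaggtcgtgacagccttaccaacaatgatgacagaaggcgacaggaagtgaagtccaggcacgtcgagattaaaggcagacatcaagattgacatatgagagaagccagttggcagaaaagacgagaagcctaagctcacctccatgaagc
chr15:87122353-87122652, intergenic, 421797 bp upstream of Fam19a5, all-or-none, lower in SKG: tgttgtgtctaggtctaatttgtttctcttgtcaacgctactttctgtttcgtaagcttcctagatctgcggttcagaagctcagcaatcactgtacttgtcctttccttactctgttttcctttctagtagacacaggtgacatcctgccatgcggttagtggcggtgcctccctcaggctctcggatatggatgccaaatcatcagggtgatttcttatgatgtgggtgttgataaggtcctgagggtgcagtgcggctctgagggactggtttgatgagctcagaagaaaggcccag
chr15:87962996-87963295, intergenic, 337915 bp downstream of the start of Fam19a5, graded, higher in SKG: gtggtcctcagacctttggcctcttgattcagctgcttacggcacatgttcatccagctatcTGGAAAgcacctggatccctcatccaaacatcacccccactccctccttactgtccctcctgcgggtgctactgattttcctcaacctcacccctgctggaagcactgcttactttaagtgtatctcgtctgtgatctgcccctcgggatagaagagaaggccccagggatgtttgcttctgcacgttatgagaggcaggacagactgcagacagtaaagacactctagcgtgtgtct
chr15:87074716-87075015, intergenic, 469434 bp upstream of Fam19a5, graded, lower in SKG: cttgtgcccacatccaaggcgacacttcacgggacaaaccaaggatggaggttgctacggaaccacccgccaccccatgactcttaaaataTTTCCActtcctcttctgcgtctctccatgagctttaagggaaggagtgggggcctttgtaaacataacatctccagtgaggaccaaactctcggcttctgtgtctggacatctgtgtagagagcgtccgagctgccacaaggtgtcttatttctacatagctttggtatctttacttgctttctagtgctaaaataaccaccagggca
chr15:77705376-77705675, intron of Apol7e, graded, higher in SKG: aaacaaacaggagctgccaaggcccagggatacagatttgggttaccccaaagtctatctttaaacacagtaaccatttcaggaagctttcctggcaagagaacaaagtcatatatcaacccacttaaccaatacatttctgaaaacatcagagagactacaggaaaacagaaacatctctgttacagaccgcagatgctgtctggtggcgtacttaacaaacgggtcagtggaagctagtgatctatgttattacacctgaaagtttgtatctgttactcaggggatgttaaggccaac
chr15:87073962-87074261, intergenic, 470188 bp upstream of Fam19a5, graded, lower in SKG: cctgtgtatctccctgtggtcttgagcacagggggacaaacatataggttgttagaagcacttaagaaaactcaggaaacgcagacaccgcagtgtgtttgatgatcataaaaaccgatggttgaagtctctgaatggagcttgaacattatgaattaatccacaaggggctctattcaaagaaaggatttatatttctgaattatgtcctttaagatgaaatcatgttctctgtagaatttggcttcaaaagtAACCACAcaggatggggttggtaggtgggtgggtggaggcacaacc
chr15:86283655-86283954, intron of Tbc1d22a, graded, higher in SKG: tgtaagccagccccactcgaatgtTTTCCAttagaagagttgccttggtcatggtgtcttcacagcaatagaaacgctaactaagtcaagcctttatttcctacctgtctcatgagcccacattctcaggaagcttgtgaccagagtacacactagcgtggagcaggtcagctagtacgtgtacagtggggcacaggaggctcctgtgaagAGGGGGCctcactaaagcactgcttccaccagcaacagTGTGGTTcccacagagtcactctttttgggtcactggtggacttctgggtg

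A match is only a string of letters, not a bound site. Of the 8 windows, the one upstream of Ndufa6 and the one at chr15:87073962-87074261 each held the Runx string, the 2 others nearest to Fam19a5 at chr15:87074716-87075015 and chr15:87962996-87963295 each held the NFAT string, and the one in Tbc1d22a held the NFAT, Runx and CTCF strings. The 2 all-or-none windows near 87.1 Mb and the window in Apol7e held none of the 9. Over all 94823 regions, central windows of the same length held the NFAT string in 23.4%, Runx in 13.2%, CTCF in 8.39%, AP-1 in 7.61%, TCF/LEF in 5.74%, T-box in 5.48%, Egr in 4.72%, NF-kB in 4.67% and ETS in 3.35%. Over the 29 regions of the segment with a shared change, which are introduced next, 2 of the 7 higher and 4 of the 22 lower in SKG held the NFAT string, and 2 of 7 and 3 of 22 held the Runx string. T-box was found in 1 of 7 and 2 of 22, CTCF in 2 of 7 and 0 of 22, AP-1 in 0 of 7 and 3 of 22, Egr in 0 of 7 and 2 of 22, NF-kB in 0 of 7 and 1 of 22, and neither ETS nor TCF/LEF in any of the 29.

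A shared change was defined as a change in the same direction in iNKT1 and in iNKT2, of at least 2-fold and with an adjusted p under 0.05 in each subset, in edgeR's quasi-likelihood test across all regions. By this rule 29 of the 1280 regions differed, 7 of them higher and 22 lower in SKG than in BALB/c. These are 0.547% and 1.72% of the segment, beside a background of 0.264% and 1.42% of all regions, so the share of lower regions was near the background. At the stricter limits of 4-fold and adjusted p under 0.01 in both subsets, 5 regions were higher and 9 lower, which is 0.391% and 0.703% of the segment beside 0.0475% and 0.308% of all regions. Because the segment was picked for these differences, nothing is read from either comparison. In each of the 29 regions, and in each subset, the lowest library of one genotype lay above the highest of the other. The rule for a shared change favours this, and its share over all regions was not counted, so nothing is read from it. Fitted with a block for the replicate number, 10 regions were higher and 34 lower, among them all 29. Other fits kept fewer. DESeq2 kept 7 of the 7 higher and 20 of the 22 lower regions, and limma with voom kept 4 and 15. With quantile normalization added to voom 5 and 9 were kept. A filter on low counts, which removes regions before the fit, left 2 and 14.

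Within single subsets, calls at 4-fold and adjusted p under 0.01 numbered 7 higher and 18 lower in SKG iNKT1, beside 0.281% and 0.732% of all regions. In SKG iNKT2 they numbered 8 higher and 43 lower, beside 0.252% and 4.73% of all regions. The larger count of lower regions in iNKT2 thus came with a larger background, and it made up 3.36% of the segment. For the difference between the 2 genotype changes (the interaction), 1 region was called higher and 0 lower, beside 0.189% and 0.341% of all regions, while 240 of the 1280 (18.8%) had an unadjusted p under 0.05 in edgeR, beside 19.8% of all regions. With DESeq2 3 were called lower, and with the replicate block 3 higher and 3 lower. The median fitted change over the 1280 regions was -0.08 on the log2 scale in iNKT1 and 0.19 in iNKT2, against -0.03 and 0.01 over all regions.

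**Figure D1:**
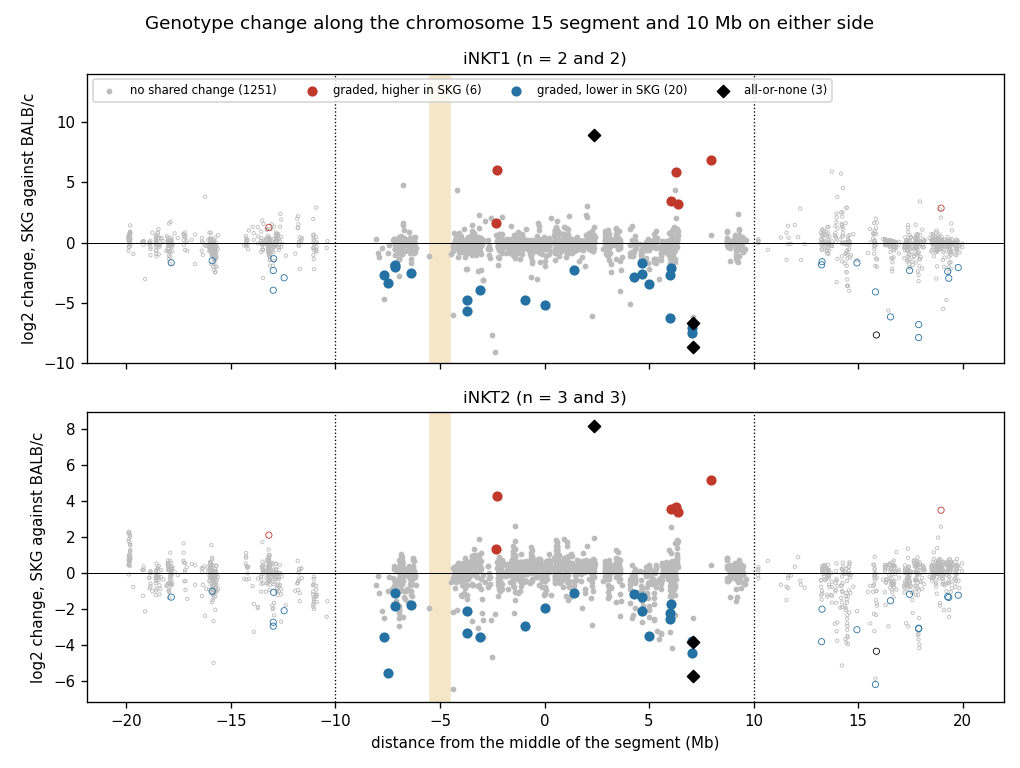
Fitted log2 change of SKG against BALB/c in iNKT1 (above) and iNKT2 (below) by distance from the middle of the segment, in Mb, with each point 1 region. Filled points lie in the segment, open points in the 10 Mb on either side, dotted lines mark its ends and the shaded band the window left out, and most of the 1251 regions without a shared change lie close to 0 while the 29 others are scattered along the segment. Values of the all-or-none regions depend on how the fit treats libraries at 0.

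The regions with a shared change were spread unevenly along the segment. Between 72 and 73 Mb 4 of 24 regions differed, all lower in SKG, and between 87 and 88 Mb 5 of 7 differed, 4 lower and 1 higher. Between 86 and 87 Mb 3 were higher and 3 lower, of 82 regions. By contrast, the gene-rich middle from 78 to 84 Mb held 4 of 601 (0.666%), and the last stretch, from 88 to 90 Mb, held 0 of 71. The intervals were compared by eye after the values were seen, and carry no test. In the 10 Mb on either side, the megabase with the most shared changes, from 67 to 68 Mb, held 4 of 46.

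An all-or-none region was defined as one where, in each subset, all libraries of one genotype together held at most 3 insertions and each library of the other genotype held at least 10. These limits apply to insertions that were not scaled for library totals. In the segment 1 region met this in the direction higher in SKG and 2 in the direction lower, beside a background of 0.00422% (4) and 0.0137% (13) of all regions. The region higher in SKG, chr15:82363872-82364176, lay between genes, 9702 bp upstream of the start of Ndufa6, which encodes a subunit of respiratory complex I. It held 0 insertions in all 5 BALB/c libraries. In SKG iNKT1 it held 27 and 49 insertions (1.74 and 3.14 CPM), and in SKG iNKT2 it held 88, 19 and 10 (2.62, 0.873 and 0.674 CPM). Against a floor of 3 insertions over the BALB/c group, it was at least 45.7-fold higher in SKG iNKT1 and at least 43.4-fold higher in SKG iNKT2. Of its central 300 bases 89.0% were marked as repeats in the reference, and 89.6% of its 32-base words occurred elsewhere in the reference genome, while the authors kept only reads that aligned to 1 place. The part of this in the difference was not tested.

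Both all-or-none regions lower in SKG lay in the same gene-poor stretch. The nearest annotated protein-coding start was that of Fam19a5, which encodes a secreted protein of the TAFA family. At chr15:87088723-87089024, 455426 bp upstream of that start, BALB/c iNKT1 held 6.54 and 7.49 CPM and SKG iNKT1 held 0 and 0.128 CPM. In iNKT2 the same region held 0.941, 0.503 and 0.618 CPM in BALB/c and 0, 0.138 and 0 CPM in SKG. It was thus open mainly in BALB/c iNKT1 and close to 0 in every SKG library. With 2 insertions in both SKG iNKT1 libraries together, the ratio of BALB/c to SKG was 108 (95% counting interval 29.7 to 894), and with 3 insertions in SKG iNKT2 it was 16.0 (5.22 to 79.4). At chr15:87122337-87122668, 421797 bp upstream, BALB/c iNKT1 held 2.06 and 1.90 CPM, and BALB/c iNKT2 held 3.36, 0.847 and 1.28 CPM. SKG iNKT1 held 0 in both libraries, which puts it at least 20.5-fold lower, and SKG iNKT2 held 0, 0.0919 and 0 CPM, a ratio of 63.6 (17.3 to 529). These intervals and floors cover counting error only.

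**Figure D2:**
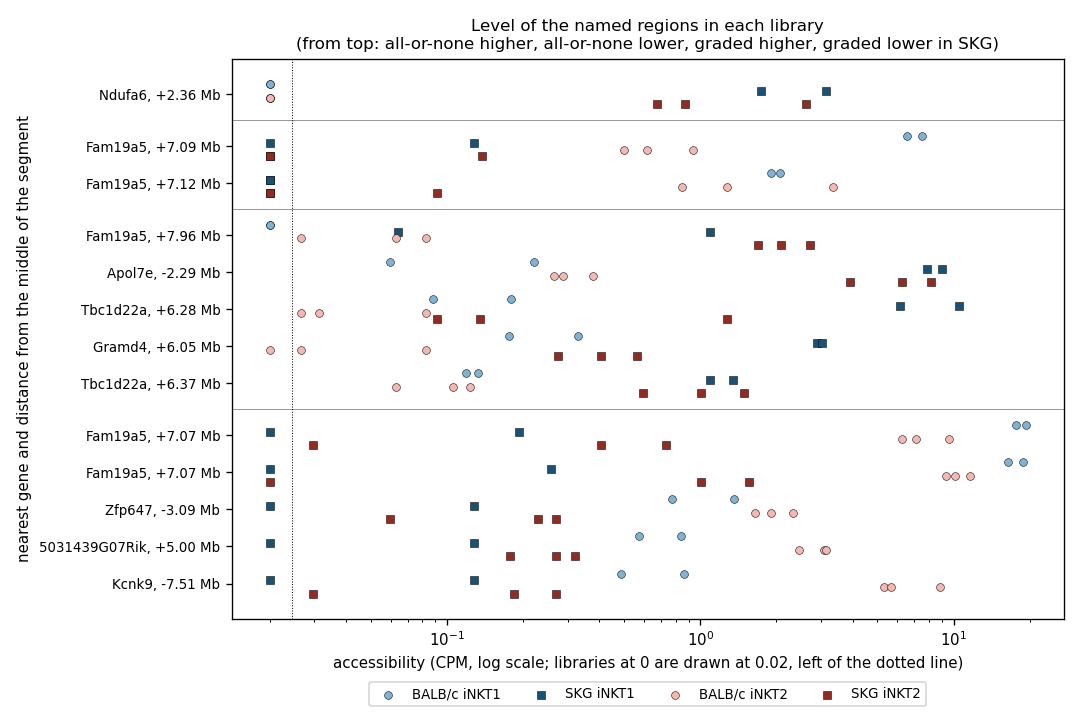
Level of the 13 named regions in each of the 10 libraries, in CPM on a log scale, with libraries at 0 drawn at 0.02. BALB/c (circles) and SKG (squares) do not overlap within either subset in any row, which the choice of these regions favours. The closed genotype of the 3 all-or-none regions lies at or below 0.138 CPM.

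The other 26 regions with a shared change were graded, meaning that the less accessible genotype still held more than 3 insertions in at least 1 subset, or that a library of the open genotype held fewer than 10. Of these, 20 were lower in SKG, by a median of -3.08 on the log2 scale in iNKT1 (range -7.51 to -1.68) and -2.18 in iNKT2 (-5.59 to -1.10). Their fall was not equal along the segment. In iNKT1 the most marked graded falls lay beside the all-or-none regions near 87 Mb, and in iNKT2 the most marked lay near Kcnk9 at 72.49 Mb. At chr15:87074495-87075235, BALB/c iNKT1 held 19.3 and 17.6 CPM and SKG iNKT1 held 0 and 0.193 CPM. In iNKT2 this region held 9.60, 6.24 and 7.13 CPM in BALB/c and 0.0297, 0.735 and 0.405 CPM in SKG, a log2 change of -4.47 ± 0.47 (SE). In iNKT1 it rested on 3 insertions in SKG, with a ratio of 193 (95% counting interval 66.0 to 939). Its neighbour at chr15:87073801-87074421 held 18.9 and 16.4 CPM against 0 and 0.257 CPM in iNKT1 (-7.05 ± 0.92), and 11.6, 10.2 and 9.32 CPM against 0, 1.56 and 1.01 CPM in iNKT2 (-3.76 ± 0.55). Both were among the more open regions with a shared change in BALB/c cells of either subset, and were near 0 in SKG iNKT1. Of the other regions of the stretch, chr15:87115616-87115915 did not have a shared change, with 3.47 and 1.76 CPM against 0.0642 and 0 CPM in iNKT1 but no more than 0.565 CPM in any iNKT2 library. The last, chr15:87967895-87968196, was open in all 10 libraries, with 3.17 to 6.10 CPM in BALB/c and 4.01 to 8.77 CPM in SKG.

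Other graded falls lay in and near genes. At chr15:86007704-86008015, in an intron of Celsr1, a cadherin receptor of planar cell polarity, iNKT1 cells held 7.77 and 7.80 CPM in BALB/c against 0.0642 and 0.128 CPM in SKG. In iNKT2 cells the BALB/c libraries held 5.71, 5.63 and 5.52 CPM, while the SKG libraries held 0, 3.22 and 0.472 CPM and so differed widely from each other. A pair of further Celsr1 introns, at 86.02 and 86.03 Mb, changed by -2.68 ± 0.54 and -2.14 ± 0.47 in iNKT1 and by -2.56 ± 0.45 and -1.70 ± 0.36 in iNKT2. In Oplah, which encodes the 5-oxoprolinase of the glutathione cycle, 2 intronic regions fell. At chr15:76312248-76312696 iNKT1 held 10.6 and 8.99 CPM in BALB/c against 0.386 and 0.321 CPM in SKG (-4.78 ± 0.87), and iNKT2 held 4.30, 3.04 and 2.60 CPM against 0, 1.93 and 0.539 CPM (-2.11 ± 0.61). At chr15:76310794-76311107 iNKT1 held 3.70 and 3.22 CPM against 0 and 0.128 CPM, and iNKT2 held 1.88, 0.847 and 0.907 CPM against 0, 0.322 and 0.0674 CPM (-3.32 ± 0.69).

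At the proximal end, the 2 regions nearest to Kcnk9, a gene for a potassium channel, were most open in BALB/c iNKT2. At chr15:72323199-72323694, 222894 bp from its start, BALB/c iNKT2 held 20.8, 16.4 and 16.5 CPM and SKG iNKT2 held 1.40, 1.61 and 1.62 CPM (-3.55 ± 0.22), and the 3 SKG libraries lay close together. In iNKT1 the levels were 4.30 and 2.78 CPM against 0.578 and 0.513 CPM (-2.70 ± 0.34). At chr15:72492332-72492908 BALB/c iNKT2 held 5.33, 5.66 and 8.86 CPM against 0.0297, 0.184 and 0.270 CPM in SKG (-5.59 ± 0.48), and iNKT1 held 0.866 and 0.485 CPM against 0 and 0.128 CPM. Of this window 79.3% was marked as repeats. A pair of regions in introns of Trappc9, a subunit of a vesicle tethering complex, fell less, by 2.03 and 1.84 on the log2 scale in iNKT1 and by 1.11 and 1.84 in iNKT2.

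Of the graded regions only 1 lay at a promoter, that of Prr5, which encodes a subunit of the kinase complex mTORC2. At chr15:84680821-84681173, BALB/c libraries held 3.23 and 3.17 CPM in iNKT1 and 3.14, 3.23 and 3.17 CPM in iNKT2. SKG libraries held 0.835 and 1.16 CPM in iNKT1 (-1.68 ± 0.31) and 1.13, 1.33 and 1.35 CPM in iNKT2 (-1.34 ± 0.23). The promoter was thus evenly open in the 5 BALB/c libraries and at about the same lower level in the 5 SKG libraries. A region 15196 bp upstream of the same start, at 84.65 Mb, held 8.03 and 9.43 CPM in BALB/c against 1.67 and 1.28 CPM in SKG iNKT1 (-2.56 ± 0.33), and changed by -2.11 ± 0.25 in iNKT2.

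The remaining falls stood alone in their neighbourhoods. In an intron of Zfp647, a zinc finger gene, chr15:76913965-76914287 held 0.777 and 1.37 CPM against 0.129 and 0 CPM in iNKT1, and 2.32, 1.64 and 1.90 CPM against 0.0594, 0.230 and 0.270 CPM in iNKT2 (-3.54 ± 0.53). Near 5031439G07Rik, chr15:85000548-85000868 held 0.836 and 0.573 CPM against 0 and 0.128 CPM in iNKT1, and 3.07, 2.46 and 3.13 CPM against 0.178, 0.322 and 0.270 CPM in iNKT2 (-3.52 ± 0.41). The fall at 79.07 Mb, 4968 bp upstream of the ankyrin repeat gene Ankrd54, was of -2.93 ± 0.38 in iNKT2, from a BALB/c mean of 2.79 CPM. At 80.02 Mb, 9750 bp upstream of the growth factor gene Pdgfb, SKG cells held 1 to 2 insertions per iNKT1 library against 134 and 69 in BALB/c, and the iNKT2 change was -1.95 ± 0.63. The other regions, at 73.59 (intron of Slc45a4), 81.42 (exon of Xpnpep3, a mitochondrial aminopeptidase) and 84.30 Mb (intron of the actin-binding parvin gene Parvb), fell by 2.27 to 2.82 in iNKT1 and by 1.10 to 1.80 in iNKT2.

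The 6 graded regions higher in SKG lay in 3 places. In the 5 with any insertions in BALB/c iNKT1 the log2 change ran from 1.63 to 6.0 in iNKT1, and over all 6 it ran from 1.35 to 5.20 in iNKT2. In the apolipoprotein L cluster, the intron of Apol7e at chr15:77705317-77705733 held 0.0597 and 0.220 CPM in BALB/c iNKT1 and 7.84 and 8.98 CPM in SKG iNKT1 (6.0 ± 0.49). In iNKT2 it held 0.376, 0.265 and 0.289 CPM in BALB/c and 8.17, 3.90 and 6.27 CPM in SKG (4.29 ± 0.34). This was the most open of the regions higher in SKG, and it was near 0 in each BALB/c library. Another region 3787 bp upstream of Apol7e rose less, by 1.63 ± 0.41 in iNKT1 and 1.35 ± 0.32 in iNKT2. Their windows had 45.4% and 42.0% of 32-base words that occurred elsewhere in the reference. The start of Apol7e itself had no shared change, with 6.66 and 4.54 CPM against 7.52 and 9.50 CPM in iNKT1 (0.59 ± 0.33), and 2.16, 1.53 and 1.07 CPM against 5.11, 2.48 and 4.11 CPM in iNKT2 (1.29 ± 0.30). Elsewhere in the cluster, chr15:77465279-77465578 held 0 insertions in all 5 SKG libraries, against 0.956 and 0.970 CPM in BALB/c iNKT1 and 0.157, 0.0265 and 0.206 CPM in BALB/c iNKT2. It was at least 10.0-fold lower in SKG iNKT1 and at least 3.04-fold lower in SKG iNKT2, but missed the limit on the adjusted p of a shared change in iNKT2, and 73.2% of its 32-base words occurred elsewhere. The starts of Apol9b and Apol8 stayed within 2-fold in both subsets, at 0.14 and -0.35 in iNKT1 and 0.60 and 0.50 in iNKT2.

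A second group lay between 86.05 and 86.37 Mb. In an intron of Tbc1d22a, which encodes a protein of a family that regulates Rab GTPases, chr15:86283646-86283963 held 0.179 and 0.0882 CPM in BALB/c iNKT1 and 6.17 and 10.5 CPM in SKG iNKT1 (5.84 ± 0.79). In iNKT2 it held 1, 1 and 2 insertions in BALB/c and 43, 2 and 2 in SKG, so the change of 3.65 ± 0.94 there rested on SKG iNKT2 replicate 1, and without that library the iNKT2 change was 1.26 ± 0.97 on the log2 scale. A further intronic region of this gene, chr15:86365009-86365308, rose by 3.24 ± 0.67 in iNKT1 and by 3.39 ± 0.55 in iNKT2, where SKG held 1.49, 0.597 and 1.01 CPM. At chr15:86050364-86050696, 7165 bp upstream of Gramd4, SKG iNKT1 held 2.89 and 3.02 CPM against 0.329 and 0.176 CPM in BALB/c (3.47 ± 0.59). In iNKT2 the same region held 0.565, 0.276 and 0.405 CPM in SKG against 3 insertions over the BALB/c libraries, a ratio of 13.8 (95% counting interval 4.31 to 70.6).

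The last rise stood by itself at chr15:87962996-87963295, 337915 bp downstream of the nearest start, that of Fam19a5. BALB/c iNKT1 held 0 in both libraries and SKG iNKT1 held 1 and 17 insertions, an at least 10.8-fold rise that rested on 1 library. In iNKT2 BALB/c held 0.0627, 0.0265 and 0.0825 CPM and SKG held 1.69, 2.71 and 2.09 CPM (5.20 ± 0.73). Here all 3 SKG iNKT2 libraries were high, and SKG iNKT1 replicate 1 was as low as BALB/c.

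Replicates of SKG iNKT2 did not move alike at these regions. Replicate 1 was the farthest of the 3 from BALB/c (the lowest where SKG was lower, the highest where it was higher, ties to the lower number) in 20 of the 29 regions, or 69.0%. Over the 1573 regions outside the segment that met the shared or the all-or-none rule, it was the farthest in 348, or 22.1%. Replicate 2 was the nearest to BALB/c in 17 of 29 regions (58.6%), against 273 of 1573 (17.4%) outside. In the Celsr1 intron at 86.01 Mb replicate 2 held 57.2% of the BALB/c mean, replicate 3 held 8.39% and replicate 1 held 0. In the more open of the Oplah introns, in the same order, the values were 58.2%, 16.3% and 0. Yet at the Prr5 start replicates 1 to 3 held 35.5%, 41.9% and 42.4%, and at the Kcnk9 region at 72.32 Mb they held 7.82%, 9.0% and 9.06%. The spread between these libraries was therefore large in some regions and small in others.

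**Figure D3:**
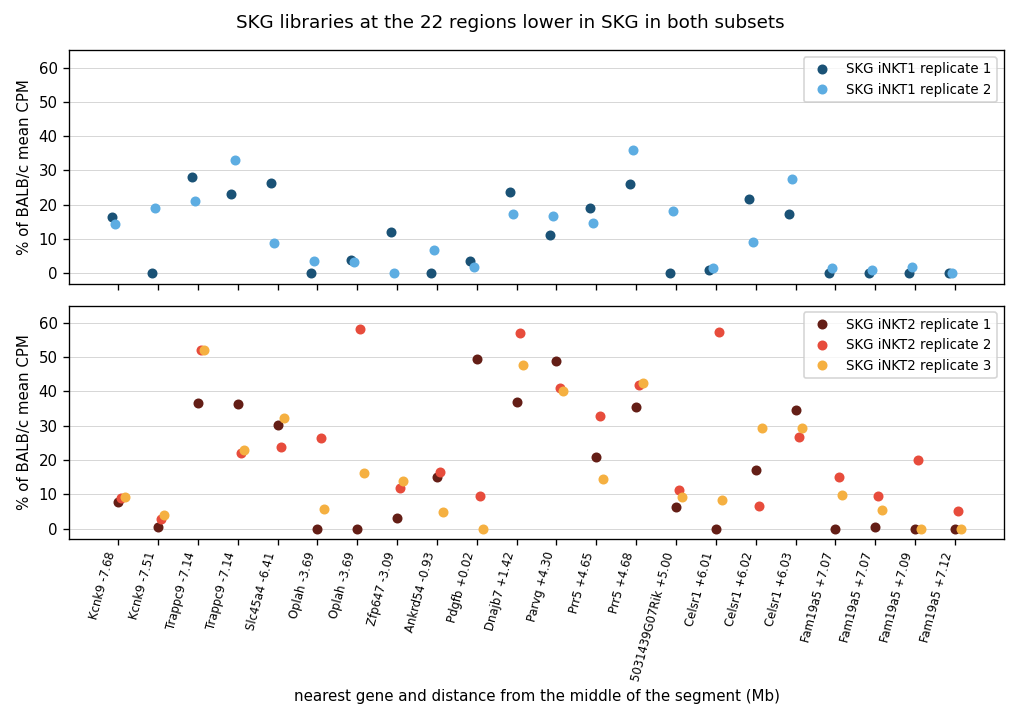
Level of each SKG library as a percent of the BALB/c mean of the same subset, in the 22 regions lower in SKG, ordered along the segment and named by the nearest gene and the distance from the middle of the segment in Mb. SKG iNKT1 libraries (above) reach at most 36.1%, and SKG iNKT2 replicate 2 (below) stands well above replicate 1 at the Oplah regions and at the first Celsr1 region.

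Since 1 library with a few insertions decides whether a region counts as all-or-none, the rule was also applied to fewer libraries, a choice made after the values were seen. In iNKT1 libraries alone, 13 regions of the segment were all-or-none lower in SKG, 10 of them with a shared change, and 1 was all-or-none higher. The background for this was 0.381% and 0.0116% of all regions. Library totals were 17214764 and 17454220 insertions in SKG iNKT1 and 36342635 and 24735873 in BALB/c iNKT1. Since the rule is not scaled for these totals, it is met more easily in the direction lower in SKG. The part of this in the counts was not tested. With SKG iNKT2 replicate 1 as the only SKG iNKT2 library, 8 were all-or-none lower, 7 of them with a shared change, and 1 higher, against 0.0401% and 0.00422% of all regions. The Celsr1 region at 86.01 Mb, the Kcnk9 region at 72.49 Mb, 1 Oplah region, the Zfp647 region and the broad region at 87.07 Mb thus counted as all-or-none or as graded according to which libraries were judged, and so did the regions near Ankrd54, Pdgfb and 5031439G07Rik when iNKT1 alone was judged.

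Leaving out single libraries changed the count of shared changes more in iNKT1, where 1 library then stood for its group and was assumed to vary like the others. Lower regions numbered 10 when SKG iNKT1 replicate 1 was left out, 13 for SKG iNKT1 replicate 2 and 13 for BALB/c iNKT1 replicate 1. Higher regions numbered 4 when either strain's iNKT1 replicate 2 was left out. Without SKG iNKT2 replicate 1, 2 or 3 the counts were 8, 9 and 7 higher and 26, 21 and 19 lower.

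Most of the changed regions lay away from genes' starts. Only 1 of the 29 overlapped a window of 500 bp around an annotated protein-coding start, against 337 of the 1251 regions without a shared change (26.9%). Of the 7 higher regions, 3 lay in introns and 4 between genes, and of the 22 lower, 11 lay in introns, 9 between genes, 1 in a noncoding exon and 1 at a start. Their GC content was close to that of the other regions of the segment, with medians of 51.0% and 50.7% beside 53.7%. The median over regions of the mean level was 0.904 CPM (higher) and 2.14 CPM (lower) beside 3.34 CPM. This mean runs over all 10 libraries and so includes the genotype in which the regions were selected as low. It is therefore not read as a difference in how open they were. At least 1 of the 32-base words of the central window occurred elsewhere in the reference in 5 of the 7 higher and 8 of the 22 lower regions, against 201 of 1251 others (16.1%). More than 50% of the window was marked as repeats in 2 of 7 and 2 of 22, against 59 of 1251 (4.72%). These shares were not tested.

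Regions just inside and just outside each edge of the segment are given for reference. The segment held no region before 71.92 Mb, where the first one, in an intron of Col22a1, changed by 0.34 ± 0.44 in iNKT1 and -0.68 ± 0.27 in iNKT2. The nearest one outside, at 69.61 Mb, changed by 0.12 ± 0.72 and -1.57 ± 0.36. Below the window left out, the last region inside the segment changed by -1.14 ± 0.50 and -1.97 ± 0.28, and the first in the window left out by -0.23 ± 0.80 and -1.34 ± 0.44. Above it, the last region in that window changed by -0.34 ± 0.36 and 0.06 ± 0.29, and the first inside the segment, 17602 bp from the start of Ly6h, by -0.95 ± 0.36 and -0.49 ± 0.25. At 90 Mb the regions inside and outside changed by 0.22 ± 0.56 and -0.04 ± 0.37 in iNKT1 and by -0.36 ± 0.35 and -0.13 ± 0.28 in iNKT2.

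The promoters of the segment's known genes were described through 4 lists, with only the most open start region of each gene read. Of 26 genes of T cell signalling, cytokine receptors and cell contact, 23 had a region at their start, and in 21 of these the change stayed under 2-fold in both subsets. The exceptions were Prr5, given above, and Nfam1, whose product signals through an activation motif and activates NFAT. Unlike Prr5, the Nfam1 start had no shared change: it changed by 0.50 ± 0.31 in iNKT1 and by -1.09 ± 0.29 in iNKT2. The starts of Il2rb and of Rac2, a GTPase of blood cells, changed by 0.00 ± 0.19 and 0.16 ± 0.20 in iNKT1 and by 0.16 ± 0.16 and 0.16 ± 0.17 in iNKT2. In the list of transcription, chromatin and RNA silencing genes, the regions read for 22 genes, among them the acetyltransferase gene Ep300 and the Argonaute gene Ago2, stayed within 2-fold in both subsets. So did those of 15 translation, mitochondrial and housekeeping genes, and those of Apobec3 and Cyp2d22, from families that differ among mouse strains. Other start regions of the same genes could differ: a less open one of Maff, at 79.35 Mb, changed by -2.82 in iNKT1, while the one read for Maff changed by -0.51. Counting every region nearest to a listed gene, 6 of 229, 0 of 199, 1 of 50 and 0 of 10 regions of the 4 lists had a shared change. The 6 were lower in SKG (2.62%) and the 1 was higher (2.0%), beside 1.42% lower and 0.264% higher of all regions. With so few regions, nothing is read from these shares.

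**Figure D4:**
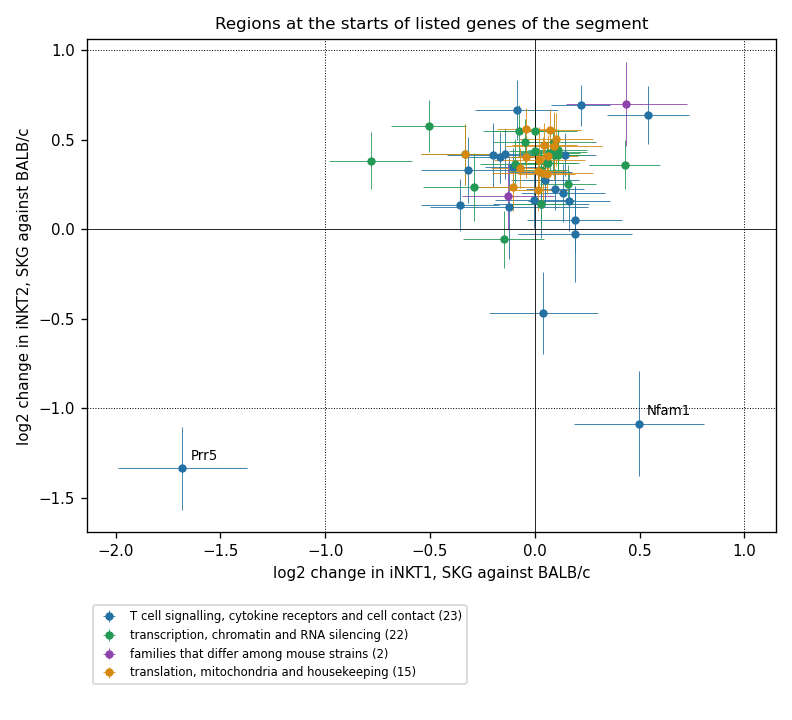
Fitted log2 change of SKG against BALB/c in iNKT1 (horizontal) and iNKT2 (vertical) at the most open start region of each of 62 listed genes, with bars for the standard error and dotted lines at a 2-fold change. Of these 62 regions, those of Prr5 and Nfam1 lie outside the dotted lines.

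In iNKT2 the start regions of all 4 lists lay a little above 0, with medians of 0.22, 0.41, 0.40 and 0.44 on the log2 scale in the order above, against 0.03, 0.03, 0.02 and 0.16 in iNKT1. This was also seen over start regions in general: the median iNKT2 change was 0.34 over the 338 of the segment and 0.23 over the 18173 of all regions. With library totals in place of TMM factors those medians were 0.21 and 0.10, while the median of all regions moved from 0.01 to -0.12. The size of this offset therefore depends on the scaling.

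The comparison of iNKT2 with iNKT1 cells was not used to choose the segment and could be tested. In BALB/c, 97 regions of the segment were higher and 98 lower in iNKT2 at 4-fold and an adjusted p under 0.01 in edgeR's quasi-likelihood test, which is 7.58% and 7.66% of the segment beside 15.5% and 6.36% of all regions. In SKG, 58 were higher and 82 lower, 4.53% and 6.41% beside 10.2% and 6.96%. The share of regions higher in iNKT2 was thus below that of all regions in both strains, and the share lower was near it. The 2 comparisons share no library. Of the regions higher in iNKT2, 40 were called in both, 41.2% of those called in BALB/c and 69.0% of those called in SKG, and of those lower, 65 were called in both, 66.3% and 79.3%. No region was called in opposite directions.

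The 3 named regions higher in iNKT2 cells lay away from annotated starts. In an intron of Ppp6r2, a regulatory subunit gene of protein phosphatase 6, chr15:89282516-89282866 held 2.78 and 1.46 CPM in BALB/c iNKT1 and 24.8, 26 and 22.6 CPM in BALB/c iNKT2 (log2 change 3.49 ± 0.22, adjusted p = 1.50e-08 by edgeR). SKG cells held 3.21 and 3.40 CPM against 27, 29.2 and 28.3 CPM (3.09 ± 0.23, adjusted p = 5.55e-08). In Sun2, a gene of the nuclear envelope, chr15:79728769-79729381 rose by 2.85 ± 0.21 in BALB/c (adjusted p = 4.17e-08) and by 3.47 ± 0.22 in SKG (adjusted p = 2.20e-08). A region 34278 bp downstream of the start of the myoglobin gene Mb, chr15:76987500-76987870, held 0.299 and 0.220 CPM in BALB/c iNKT1 and 3.95, 3.89 and 4.04 CPM in BALB/c iNKT2 (3.88 ± 0.34, adjusted p = 2.17e-07). It rose by 2.30 ± 0.41 in SKG (adjusted p = 0.000221), where iNKT2 held 1.52, 1.56 and 1.21 CPM.

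Regions lower in iNKT2 cells included the following. At chr15:86051212-86051590, next to the Gramd4 region that was higher in SKG, BALB/c iNKT1 held 12.0 and 10.5 CPM and BALB/c iNKT2 held 0.690, 0.423 and 0.371 CPM (-4.48 ± 0.25, adjusted p = 5.34e-09). In SKG the levels were 19.3 and 22.1 CPM against 3.36, 2.94 and 2.56 CPM (-2.79 ± 0.21, adjusted p = 7.67e-08). The start of Tnfrsf13c, the gene for the BAFF receptor, fell by 2.29 ± 0.26 in BALB/c (adjusted p = 2.32e-06) and by 2.51 ± 0.27 in SKG (adjusted p = 2.04e-06). The start of Nfam1 fell by 0.96 ± 0.28 in BALB/c, short of the 4-fold limit (adjusted p = 0.00821), and by 2.54 ± 0.31 in SKG (adjusted p = 7.59e-06). A start region of Apobec3, a cytidine deaminase gene active against retroviruses, was singled out after its values were seen: at chr15:79899822-79900508 it fell by 4.98 ± 0.55 in BALB/c (adjusted p = 1.88e-06) and by 5.52 ± 0.62 in SKG (adjusted p = 3.03e-06). It held 18.8 and 21.1 CPM in BALB/c iNKT1 and 1.51, 0.238 and 0.0825 CPM in BALB/c iNKT2, and 76.6% of its 32-base words occurred elsewhere in the reference. The start of Apobec3 used in the gene list, chr15:79892103-79892550, fell by 1.12 ± 0.20 in BALB/c (adjusted p = 0.000153) and by 0.80 ± 0.20 in SKG (adjusted p = 0.00388).

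At Il2rb the subsets were sorted on the protein, so its regions are given without a test. The main start region, chr15:78494952-78495635, held 93.2 and 93.7 CPM in BALB/c iNKT1 and 29.4, 26.6 and 27.5 CPM in BALB/c iNKT2. SKG held 88.9 and 97.6 CPM against 40.9, 24.3 and 27.8 CPM. In an exon at the 3′ end of the gene, chr15:78480153-78480484 held 20.3 and 24.6 CPM in BALB/c iNKT1 against 1.98, 1.67 and 1.40 CPM in iNKT2, and its neighbour chr15:78479389-78480122 held 17.6 and 17.5 CPM against 3.04, 3.68 and 3.05 CPM. None of the 12 regions whose nearest start is that of Il2rb had a shared genotype change. Both exon regions lie nearest to the start of Tmprss6 and are not among the 12, and they had no shared change either. Between genotypes chr15:78480153-78480484 changed in opposite directions, by -0.71 ± 0.21 in iNKT1 and 0.74 ± 0.20 in iNKT2. Its neighbour changed by -0.57 ± 0.20 and -0.23 ± 0.18.

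Of the 29 regions with a shared genotype change, 7 were also called between the subsets in BALB/c cells: 4 lower in SKG were higher in iNKT2, 2 lower in SKG were lower in iNKT2, and 1 higher in SKG was lower in iNKT2. The 4 higher and 3 lower in iNKT2 are 13.8% and 10.3% of the 29, not far from the 15.5% and 6.36% of all regions. The first 4 were both Kcnk9 regions and those in Slc45a4 and near 5031439G07Rik, with log2 changes of 2.32, 3.23, 2.72 and 2.00. The next 2 were the region upstream of Pdgfb, at -2.85, and the all-or-none region at 87.09 Mb, at -3.35, and the last was the Gramd4 region at 86.05 Mb, at -2.84. In SKG cells 4 were called, 6.9% of the 29 in each direction beside 10.2% and 6.96% of all regions, of which the Slc45a4 and Parvb regions were higher in iNKT2, and the Gramd4 region and the Tbc1d22a region at 86.28 Mb were lower. These comparisons use the same libraries as the genotype changes.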

How the data were processed

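ATAC-seq was measured in 10 libraries. Per the study's methods, sorted cells were treated with transposase, reads were aligned to mm10 with Bowtie, keeping those that matched 1 place, duplicates were removed with Picard, peak summits were called per replicate with MACS2 and merged into 1 set of regions, and chromosome Y and blacklisted regions were dropped. The deposited table holds, per region and library, the counts of transposase insertions that the authors computed. It is named as normalized, but its values are whole numbers with a different total in each of the 10 libraries, and were used as raw counts.

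Counts were fitted with edgeR 4.0.16 (quasi-likelihood test, TMM factors, R 4.3.3) over all 94823 regions and 4 groups, with Benjamini-Hochberg adjustment over all regions. Alternatives used DESeq2 1.42.0, limma 3.58.1 with voom as the authors did, library totals, a filter on low counts, other limits and single libraries left out. On simulated counts, 90% and 98% of 100 regions changed 4-fold were recovered in the genotype comparison of iNKT1 and of iNKT2, with 8 and 7 false regions among 94823. Recovery meant an adjusted p under 0.05 and at least 2-fold in the subset compared. Changed regions were drawn only from those at or above the lower quartile of mean insertions, with the spread taken from the fitted trend. These rates therefore do not cover regions with fewer insertions or more spread, nor the rule for both subsets. The main fit did not pair libraries, and same-numbered replicates were treated as pairs only in the alternative fit with a replicate block. Among iNKT2 libraries, the deviations of same-numbered BALB/c and SKG replicates from their group means correlated at 0.517, 0.181 and 0.224 across regions. Some libraries of different numbers correlated as much (up to 0.308), so only replicate 1 was set apart by its number. Among iNKT1 libraries the correlation was -0.00937.

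Genes were assigned from the GENCODE annotation of GRCm38, and RefSeq gave only the sequence. A start is a region within 500 bp of an annotated start of a protein-coding transcript, and the nearest gene is the one with the nearest such start. Named regions were the all-or-none regions, the 5 graded regions in each direction with the largest change in both subsets, and the 3 regions with the smallest p in each direction between the subsets. The segment, its rule and the gene lists were chosen with earlier results of these data known. Some markers of other cell types are not reported here.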

Additional observations from a re-analysis of the deposited data

Results flagged for a closer look

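In 1 region of the segment the genotype change differed between the subsets at 4-fold and an adjusted p under 0.01 in edgeR's test of the difference itself. At 2-fold and an adjusted p under 0.05, 27 regions were higher and 4 lower. The share over all regions was not counted at these looser limits, so nothing is read from these counts. At chr15:79346112-79346429, 351 bp upstream of the start of Maff, which encodes a small Maf transcription factor, BALB/c iNKT1 held 11.8 and 13.1 CPM and SKG iNKT1 held 2.06 and 1.48 CPM (log2 change -2.82 ± 0.38). In iNKT2 the levels were 0.910, 0.741 and 0.783 CPM in BALB/c and 1.61, 0.735 and 0.405 CPM in SKG (0.31 ± 0.36), and the genotypes overlapped. The change in iNKT2 was higher than that in iNKT1 by 3.13 ± 0.52 on the log2 scale. The call was lost with library totals in place of TMM factors, and when any iNKT1 library, or BALB/c iNKT2 replicate 2 or 3, was left out, each of which left 0 regions called higher in the segment. Because the segment was chosen on its genotype changes, this value is a description.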

How the results depend on the processing

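Of 1064 values of single named regions under the alternatives, 971 kept their direction and their side of the threshold, 93 kept the direction and lost the threshold, and 0 reversed. Named regions were picked for their changes in the same data, which favours this, so nothing is read from it. Values of regions that the filter on low counts removed are not among the 1064: under that filter 39 were kept and 1 lost the threshold. Counts moved more, and the cause was not tested except where fewer regions, libraries or other limits enter by construction. With library totals 0 regions were higher in the interaction, and DESeq2 called 3 lower. With limma and voom, 6 regions were lower in SKG iNKT1, 35 were higher in SKG iNKT2 against iNKT1, and 4 shared and 3 graded changes were higher in SKG. With quantile normalization added, 5 were lower in SKG iNKT1, 33 higher in SKG iNKT2, 49 and 25 higher in iNKT2 than iNKT1 in BALB/c and SKG, 2 higher in the interaction, and 9 shared and 8 graded lower. With only regions at or above the lower quartile of mean insertions (967 of the 1280), counts higher and lower were 2 and 11 in SKG iNKT1, 2 and 18 in SKG iNKT2, 43 and 56 between subsets in BALB/c, 35 and 53 in SKG, 2 and 14 for shared and 2 and 13 for graded changes. With the replicate block, which pairs libraries of the same number, 34 shared and 32 graded changes were lower and the interaction had 3 higher and 3 lower. Other counts under the block stayed within 1.5 times. At the other thresholds, adjusted p under 0.05 and 2-fold for single comparisons and the stricter limits for shared changes, counts were 14 and 42, 47 and 106, 187 and 282, and 174 and 220 in the same order of comparisons, 27 and 4 for the interaction, and 9 shared and 7 graded lower. For single comparisons and the interaction, shares over all regions were not counted at these limits. All-or-none regions numbered 0 lower with no insertions allowed in the closed genotype, 2 higher and 5 lower with 10 allowed, and 0 higher and 1 lower with at least 20 required in every open library. Judged in iNKT1 alone 13 were lower, and with SKG iNKT2 replicate 1 as the single SKG iNKT2 library 8 were lower, both chosen after seeing the data.

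Leaving out 1 library at a time gave 1 to 7 higher and 4 to 21 lower in SKG iNKT1, 6 to 13 and 31 to 58 in SKG iNKT2, 80 to 102 and 82 to 113 between subsets in BALB/c, 40 to 63 and 67 to 100 in SKG, and 0 to 5 and 0 to 3 for the interaction. Shared changes ranged over 4 to 10 higher and 10 to 26 lower, graded over 3 to 9 and 9 to 24, and all-or-none over 1 to 1 and 2 to 3. Counts of a few insertions limit how closely a closed region can be measured, most in libraries with a median of 40 to 42 insertions per region.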
